A study of Homo sapiens with 6 samples.

Results

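Metallothioneins, their zinc-sensing regulator MTF1 and the zinc exporter SLC30A1 were examined in parent and Adriamycin-resistant breast cancer cells. The 9 genes (MT1A, MT1E, MT1F, MT1G, MT1M, MT1X, MT2A, MTF1 and SLC30A1) were picked by gene name from the 58735 genes of the count table, and 7 of them had enough counts to be tested among 15242 genes. MDA-MB-231 is an established human triple-negative breast cancer cell line, and Adriamycin (ADR, doxorubicin) is an anthracycline that damages DNA. Bulk RNA was sequenced from the parent line (3 libraries) and from ADRr cells, labelled "ADR resistant" (3 libraries). The labels give no other allele or agent for either group. The resistant cells had been selected by stepwise exposure to ADR and then cloned by limiting dilution, so clonal differences and resistance cannot be told apart, and the dose at harvest is not named in the sources used here. Total counts per library ranged from 15983985 to 18272314.

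Metallothioneins are small cysteine-rich proteins that bind zinc and copper and also take up cadmium. Free zinc in the cell activates MTF1, which binds metal response elements (MREs) upstream of the metallothionein genes and of SLC30A1. SLC30A1 (ZnT1) sits at the plasma membrane and moves zinc out of the cell. Glucocorticoids and oxidative stress are also known to raise metallothionein transcription.

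MT2A (ENSG00000125148, chr16:56608199-56609497, plus strand) and MT1E (ENSG00000169715, chr16:56625475-56627112, plus strand) supplied nearly all metallothionein counts. Their coding sequences are shown because the results turn on telling these paralogs apart. Each is joined from 3 exons of the principal GENCODE 29 transcript on GRCh38, without the stop codon. Capitals mark the bases at which MT2A and MT1E differ in the MT2A line, and the bases at which MT1E differs from MT2A in the MT1E line.
MT2A: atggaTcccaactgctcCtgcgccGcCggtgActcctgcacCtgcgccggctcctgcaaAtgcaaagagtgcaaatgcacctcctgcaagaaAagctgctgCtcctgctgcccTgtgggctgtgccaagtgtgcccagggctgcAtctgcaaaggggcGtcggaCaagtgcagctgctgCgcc
MT1E: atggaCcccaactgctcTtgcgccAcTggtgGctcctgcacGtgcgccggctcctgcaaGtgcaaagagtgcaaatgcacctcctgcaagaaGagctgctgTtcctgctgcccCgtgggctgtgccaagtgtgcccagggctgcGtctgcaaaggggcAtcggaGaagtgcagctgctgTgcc
The pair differed at 14 of 183 coding bases, an identity of 92.3%. Among the 7 metallothionein members, identity ran from 88.5% (MT1F and MT1X) to 95.1% (MT1G and MT2A). No 150-base stretch of an MT2A or MT1E transcript occurred in a transcript of another gene, and 150 bp was the read length. For stretches of 75 bases, 0 of those in MT2A and 1.42% of those in MT1E occurred elsewhere. Of MT1X, 8.58% of the 150-base stretches were also in AC026461.1, a same-strand gene that covers 165 of the 450 bases of the MT1X principal transcript. AC026461.1 had no counts in any library, and how reads shared by overlapping genes were treated is not given in the sources used here, so the MT1X level is uncertain.

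The sequence before the transcription start was available in the RefSeq promoter table (GRCh38.p14) for MT2A, MT1X, SLC30A1 and MTF1, 4 of the 9 genes. MT1A, MT1E, MT1F, MT1G and MT1M were not matched. An MRE core was searched as TGCACNC or TGCGCNC on both strands within 250 bases upstream of the RefSeq start. The stretches below carry the matches, printed on the strand of the gene with each match in capitals. For MT2A they are chr16:56608414-56608443 and chr16:56608523-56608552, for MT1X chr16:56682220-56682423 and for SLC30A1 chr1:211579162-211579411 (minus strand).
MT2A, first stretch: ccGTGTGCAgagccgggTGCGCCCggccca
MT2A, later stretch: gggctttTGCACTCgtcccggctctttcta
MT1X: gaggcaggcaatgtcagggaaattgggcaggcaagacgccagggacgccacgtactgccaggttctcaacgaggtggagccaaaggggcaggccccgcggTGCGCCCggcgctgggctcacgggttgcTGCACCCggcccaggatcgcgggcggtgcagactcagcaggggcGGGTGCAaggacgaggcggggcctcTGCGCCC
SLC30A1: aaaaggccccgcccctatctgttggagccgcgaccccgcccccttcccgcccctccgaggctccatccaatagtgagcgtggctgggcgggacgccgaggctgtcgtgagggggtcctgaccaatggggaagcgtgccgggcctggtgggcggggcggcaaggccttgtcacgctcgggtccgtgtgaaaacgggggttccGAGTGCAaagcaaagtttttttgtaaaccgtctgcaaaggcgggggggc
MT2A held 7 matches in its 250 bases, 3 of them in the printed stretches, and MT1X held 4. SLC30A1 held 1 match and MTF1 held 0. Outside the 9 genes, MT1H held 8 matches and MT1B and MT4 held 3 each, and these genes had 0 counts in every library. Of 35116 promoters of the same length, 24.8% had at least 1 match, 0.37% at least 4 and 0.0313% at least 7. A match describes the letters and is not a measured binding site. The RefSeq start of MT2A lies 385 bp downstream of the first base of the gene in the count table, so this window falls inside the gene as annotated there. For SLC30A1 the RefSeq start lies 419 bp upstream of the gene's first base in the count table. The 250 bases next to that annotated start were therefore not searched.

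MT2A was the most abundant metallothionein in both groups and rose in ADRr cells. In counts scaled to a common library size (CPM), it measured 458, 434 and 490 CPM in the parent libraries and 608, 668 and 692 CPM in the ADRr libraries. All ADRr libraries lay above all parent libraries. The mean was 461 ± 28.1 CPM (SD, n = 3) in parent cells and 656 ± 43.6 CPM (SD, n = 3) in ADRr cells. The log2 fold change was 0.51 (SE 0.055), a 1.42-fold increase with a 95% interval of 1.32 to 1.54 and an edgeR adjusted p of 2.73e-08. By FPKM, a level per length, MT2A ranked 58 among the 15242 tested genes in parent cells and 37 in ADRr cells.

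MT1E, the other abundant metallothionein, had 115, 137 and 129 CPM in the parent libraries and 106, 110 and 104 CPM in the ADRr libraries. The groups did not overlap, and here ADRr cells were on the low side. The means were 127 ± 11.1 CPM (SD, n = 3) and 107 ± 3.16 CPM (SD, n = 3), a log2 fold change of -0.25 (SE 0.063) with an edgeR adjusted p of 0.0014. The fold of 0.841 (95% interval 0.769 to 0.921) did not reach the required 1.2-fold change, so MT1E was not called. It was called lower without parent replicate 1 (log2 fold change -0.32) and without ADRr replicate 2 (log2 fold change -0.27).

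**Figure D1:**
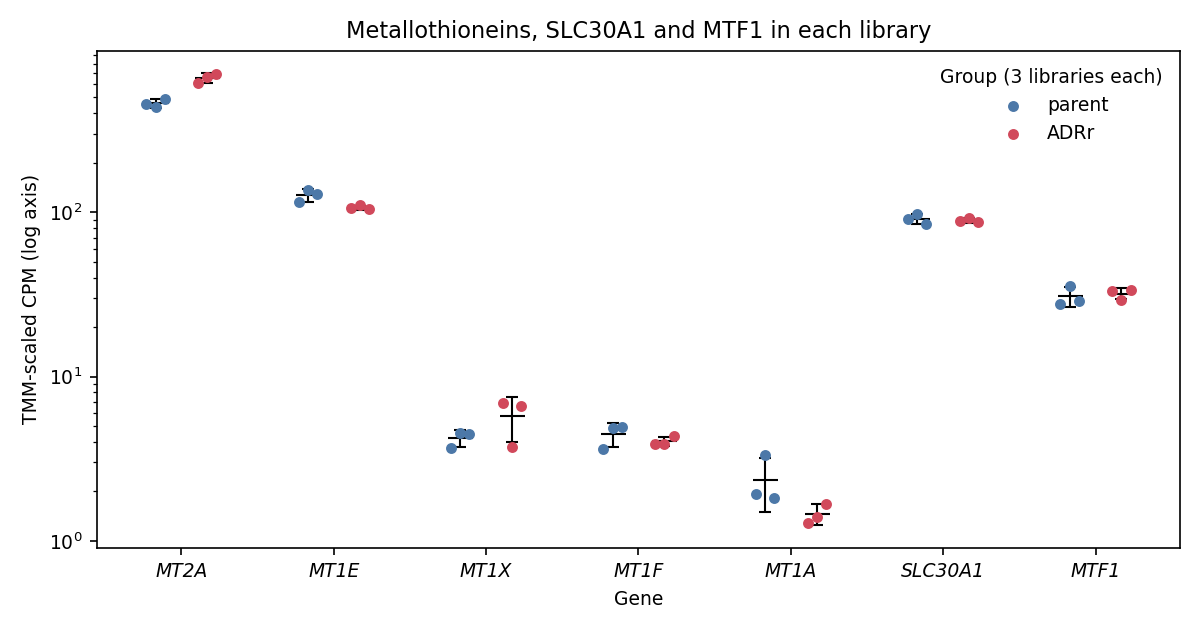
TMM-scaled CPM (log axis) of the 7 tested genes in each library, with points for the 3 parent and 3 ADRr libraries and black bars for the mean and SD. MT2A lies at 434 to 490 CPM in parent and 608 to 692 CPM in ADRr libraries, whereas the points of MT1X, MT1F, SLC30A1 and MTF1 overlap between groups.

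MT1X, MT1F and MT1A were measured at a few CPM. MT1X had 3.66, 4.54 and 4.49 CPM in parent libraries and 6.93, 3.72 and 6.64 CPM in ADRr libraries. ADRr replicate 2 lay among the parent values while the other ADRr libraries were above them. The log2 fold change of 0.45 (SE 0.21) was not called, with an edgeR adjusted p of 0.063. Without that library the log2 fold change was 0.69 and MT1X was called higher (edgeR adjusted p = 0.0040). It was also called higher without parent replicate 2, at a log2 fold change of 0.50 (edgeR adjusted p = 0.04997).

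MT1F had 3.60, 4.86 and 4.94 CPM in parent libraries and 3.88, 3.90 and 4.36 CPM in ADRr libraries. The groups overlapped, and the log2 fold change was -0.14 (SE 0.19). The edgeR adjusted p was 0.54, with a fold interval of 0.686 to 1.2. MT1A had 1.92, 3.34 and 1.82 CPM in parent and 1.28, 1.40 and 1.69 CPM in ADRr libraries. The ADRr libraries were all below the parent libraries, and the log2 fold change of -0.69 (SE 0.31) was not called (edgeR adjusted p = 0.0555). The gap was narrow, at 31 counts in ADRr replicate 3 against 32 in parent replicates 1 and 3. Parent replicate 2 stood above the other parent libraries, and without it the log2 fold change was -0.36. MT1A was called lower without parent replicate 1 (log2 fold change -0.82) and without parent replicate 3 (log2 fold change -0.85).

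MT1M and MT1G did not pass the filter on low counts. MT1M had 1, 4 and 3 counts in the parent libraries and 0 in each ADRr library. Pooled over the 3 parent libraries this was 8 counts, or 0.160 CPM. A count of 0 over the 3 ADRr libraries allows up to 0.0568 CPM (3 counts). With the parent value taken as measured, parent cells were at least 2.81-fold higher. This bound rests on 8 counts and had no test in the main fit. MT1G had 0 counts in all 6 libraries, which allows up to 0.163 to 0.189 CPM in a library (3 counts). None of the 13 other metallothionein genes and pseudogenes in the table passed the filter. The brain-enriched MT3 and the epithelial MT4 had 0 counts throughout, and the pseudogene MT1P1 had 0 to 4 counts per library. These limits cover counting error only.

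The regulator and the exporter gave no called difference. MTF1 (ENSG00000188786, chr1:37809567-37859620, minus strand) had 27.6, 35.8 and 28.8 CPM in parent libraries and 33.0, 29.1 and 33.6 CPM in ADRr libraries. The ranges overlapped, with a log2 fold change of 0.06 (SE 0.096), an interval of 0.907- to 1.2-fold and an edgeR adjusted p of 0.61. A gene on the opposite strand, AL929472.4, overlaps MTF1 and had no counts. SLC30A1 (ENSG00000170385, chr1:211571568-211578742, minus strand) had 90.7, 97.2 and 84.9 CPM in parent libraries and 88.0, 92.8 and 86.7 CPM in ADRr libraries. Its values also overlapped, at a log2 fold change of -0.03 (SE 0.063), an interval of 0.897- to 1.07-fold and an edgeR adjusted p of 0.71. For SLC30A1 the interval leaves out changes of 1.2-fold in either direction.

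In all, 1 of the 7 tested genes was called higher and 0 lower. The background was 29.2% called higher and 29.6% called lower among the 15242 tested genes. The share of members was not tested against this background. The median log2 fold change was -0.03 over the 7 genes and -0.01 over all tested genes. ADRr libraries lay all above or all below the parent libraries for MT2A, MT1E and, by a narrow gap, MT1A. Among all tested genes this held for 34.5% above and 34.7% below. In bulk RNA, a change in the number of cells that express a gene and a change in RNA per cell cannot be told apart.

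The summed metallothionein level was higher in every ADRr library than in every parent library, and MT2A made up more of it. Summed over all metallothionein genes, the libraries held 582, 584 and 631 CPM in parent cells and 726, 787 and 809 CPM in ADRr cells. The mean was 599 ± 27.5 CPM (SD, n = 3) against 774 ± 43.0 CPM (SD, n = 3), a ratio of 1.29. The higher sum came from MT2A, whose mean alone went from 461 to 656 CPM, while the mean of MT1E went from 127 to 107 CPM. MT2A made up 76.9 ± 2.28% (SD, n = 3) of metallothionein counts in parent cells and 84.7 ± 0.946% (SD, n = 3) in ADRr cells. MT1E made up 21.2 ± 1.95% (SD, n = 3) and 13.8 ± 0.897% (SD, n = 3), respectively.

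The ratio of MT2A to MT1E counts within a library does not depend on scaling between libraries. It was 3.99, 3.18 and 3.80 in the parent libraries and 5.73, 6.07 and 6.67 in the ADRr libraries. The lowest ADRr ratio was above the highest parent ratio, and the means were 3.66 ± 0.427 (SD, n = 3) and 6.16 ± 0.474 (SD, n = 3). This separation follows from MT2A lying above and MT1E below the parent libraries in every ADRr library, so it is not a further result. An exact two-sided permutation test of 3 against 3 libraries cannot give a p below 0.1, so no p is given.

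**Figure D2:**
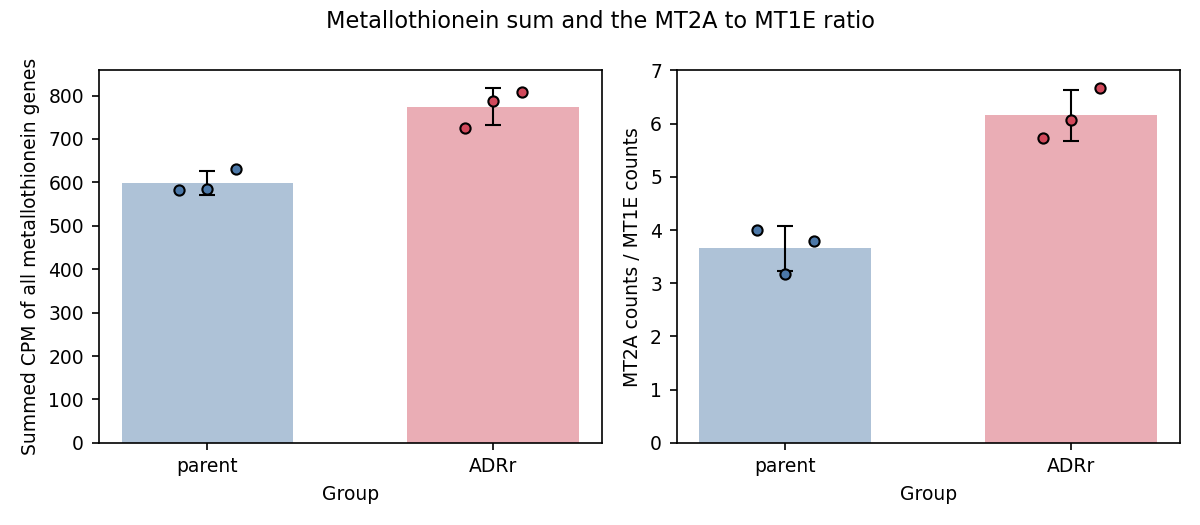
Summed CPM of all metallothionein genes (left) and the ratio of MT2A to MT1E counts (right) in parent and ADRr cells, with bars for the mean, error bars for the SD and points for the 3 libraries of each group. The sum was 599 and 774 CPM and the ratio 3.66 and 6.16. The libraries of the groups do not overlap in either panel, which for the ratio follows from the separation of MT2A and MT1E.

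Levels were compared between genes per kilobase of the principal transcript. In parent cells MT2A stood at 587 CPM per kb, MT1E at 180, SLC30A1 at 16.6 and MT1X at 9.40 ± 1.10 (SD, n = 3). MT1F at 6.47 ± 1.09 and MT1A at 5.96 ± 2.15 CPM per kb (SD, n = 3) were not separable, and MTF1 was lowest of the tested genes at 3.85. In ADRr cells MT2A stood at 835 CPM per kb, MT1E at 152, SLC30A1 at 16.3, MT1X at 12.8 ± 3.95 (SD, n = 3) and MT1F at 5.87. MTF1 at 4.0 and MT1A at 3.68 CPM per kb overlapped there. The order depends on the length used, since the deposited FPKM divides by all annotated exon bases of a gene, 1773 for MT1X against 450 in its principal transcript. By FPKM, MT1A (5.84 in parent cells) stood above MTF1 (3.75), MT1X (2.34) and MT1F (2.32).

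Of the 11 genes of the zinc exporter list (SLC30A1 included), 8 were tested, 2 were called higher and 3 lower, with a median log2 fold change of -0.04. These counts stood beside a background of 29.2% called higher and 29.6% called lower among all tested genes, and neither this list nor those that follow were tested against it. SLC30A7, which loads zinc into the secretory pathway, rose from 52.9 ± 4.75 to 88.5 ± 1.71 CPM (SD, n = 3 each; log2 fold change 0.74, SE 0.068, edgeR adjusted p 2.01e-09). SLC30A6, a Golgi exporter, rose by a log2 fold change of 0.39. SLC30A3, a vesicular transporter best known from synapses, fell from 2.66 ± 0.239 to 0.940 ± 0.206 CPM (SD, n = 3 each), a log2 fold change of -1.49. The endosomal SLC30A4 (log2 fold change -0.54) and SLC30A5 (-0.39), the partner of SLC30A6, were also lower. SLC30A10, a plasma membrane manganese exporter of the same family, was not tested, with 5, 3 and 5 counts in parent libraries and 0 in each ADRr library.

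Of 14 zinc importers, 11 were tested, 3 were called higher and 4 lower (background 29.2% and 29.6%), with a median log2 fold change of 0.08. SLC39A14 (ZIP14), which imports zinc, iron and manganese at the plasma membrane, measured 162, 159 and 150 CPM in parent libraries and 317, 308 and 304 CPM in ADRr libraries. That was a log2 fold change of 0.98 (SE 0.051, edgeR adjusted p 1.11e-13). SLC39A7 (ZIP7), which releases zinc from the endoplasmic reticulum, measured 377, 381 and 398 CPM in parent libraries and 149, 153 and 157 CPM in ADRr libraries. Its log2 fold change was -1.33 (SE 0.050, edgeR adjusted p 3.04e-16). Neither gene had overlapping groups, and among all tested genes 34.5% lay wholly above and 34.7% wholly below in ADRr libraries. SLC39A6 (log2 fold change 0.45) and SLC39A11 (0.42) were higher, and SLC39A9 (-0.63), SLC39A10 (-0.62) and SLC39A3 (-0.43) were lower.

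Of 5 other genes known as MTF1 targets, 0 were called higher and 3 lower (background 29.2% and 29.6%), with a median log2 fold change of -0.35 and no test of the list. The iron exporter SLC40A1 fell from 5.75 ± 0.374 to 2.74 ± 0.613 CPM (SD, n = 3 each), a log2 fold change of -1.07 (SE 0.20, edgeR adjusted p 7.77e-05). The importer SLC39A10, which MTF1 is known to repress and which is also in the importer list, and the selenoprotein gene SELENOW (log2 fold change -0.35) were the others. GCLC (log2 fold change -0.19) and PGF (-0.08) were not called.

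**Figure D3:**
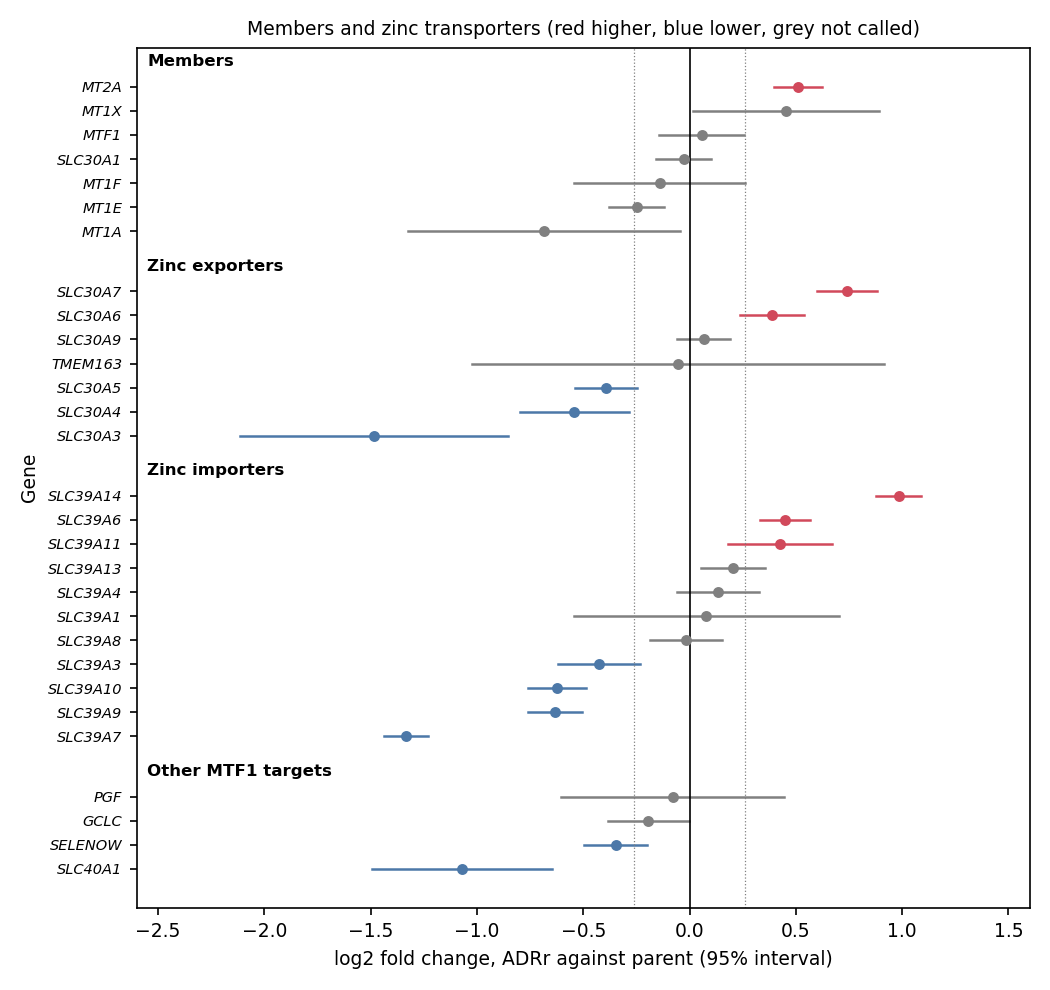
Log2 fold change of ADRr against parent cells with its 95% interval for the tested members, zinc exporters, zinc importers and other MTF1 targets, each gene drawn once (SLC30A1 with the members, SLC39A10 with the importers); dotted lines mark a 1.2-fold change. MT2A is the called member at 0.51, and the transporters range from SLC30A3 at -1.49 to SLC39A14 at 0.98.

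Of 8 other transcription factors tied to metallothionein genes or to zinc, 3 were called higher and 1 lower (background 29.2% and 29.6%). Their median log2 fold change was 0.13. NFE2L2 (NRF2), the oxidative stress factor, rose from 133 ± 9.81 to 216 ± 7.05 CPM (SD, n = 3 each), a log2 fold change of 0.71. STAT3 rose by 0.46 on the log2 scale and the zinc-sensitive ZNF658 by 1.35, the latter from 1.24 ± 0.296 CPM (SD, n = 3). USF1 had a log2 fold change of -0.43. The glucocorticoid receptor NR3C1 (log2 fold change 0.24, edgeR adjusted p 0.00072) stayed under the 1.2-fold limit.

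Of 8 genes known to answer to heavy metals, 4 were called higher and 2 lower (background 29.2% and 29.6%), with a median log2 fold change of 0.20. The cystine transporter SLC7A11 (log2 fold change 1.52), heme oxygenase HMOX1 (1.07), TXNRD1 (0.91) and GCLM (0.30) rose. The heat-shock genes HSPA1A (-2.16) and HSPA1B (-1.06) fell, and the split of reads between these near-identical copies is uncertain. DNAJB1 (log2 fold change 0.10) and SRXN1 (-0.12) were not called.

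Of 9 genes of the glucocorticoid response list, 8 were tested, 5 were called higher and 1 lower (background 29.2% and 29.6%), with a median log2 fold change of 1.10 and no test of the list. The phosphatase gene DUSP1 rose from 20.1 ± 0.730 to 95.5 ± 10.2 CPM (SD, n = 3 each), and ERRFI1, an inhibitor of EGFR signalling, from 183 ± 10.3 to 514 ± 8.26 CPM (SD, n = 3 each). PER1, KLF9 and TSC22D3 (GILZ) rose by 1.43, 1.16 and 1.04 on the log2 scale. CRISPLD2 fell by 0.61 on the log2 scale. The receptor co-chaperone FKBP5 (log2 fold change -0.07) and the kinase SGK1 (0.12) were not called.

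Metallothioneins also bind copper, and of 15 rows of copper-handling genes 13 were tested, 5 called higher and 1 lower (background 29.2% and 29.6%), with a median log2 fold change of 0.06. The copper importer SLC31A1 (CTR1) rose from 86.4 ± 2.56 to 122 ± 6.29 CPM (SD, n = 3 each), and its relative SLC31A2 rose by 1.82 on the log2 scale from 0.493 CPM. COX19, COMMD1 and the chaperone ATOX1 rose by 0.96, 0.93 and 0.49. The mitochondrial carrier SLC25A3 had a log2 fold change of -0.27. The copper-exporting ATPases ATP7A (log2 fold change 0.10) and ATP7B (-0.03) were not called.

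The metallothionein cluster spans chr16:56565049-56684196. Within 500 kb on either side 13 other genes were tested, of which 3 were called higher and 3 lower (background 29.2% and 29.6%), with a median log2 fold change of 0.13. The nearest tested gene on the lower side, the cilium gene BBS2 at 44766 bp, was not called (log2 fold change 0.15, edgeR adjusted p 0.145). The nearest on the higher side, the nuclear pore gene NUP93 at 45909 bp, rose by a log2 fold change of 0.31. OGFOD1 (0.63) and the stress gene HERPUD1 (0.91) also rose, whereas GNAO1 (-1.01), NLRC5 (-0.59) and NUDT21 (-0.45) fell.

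**Figure D4:**
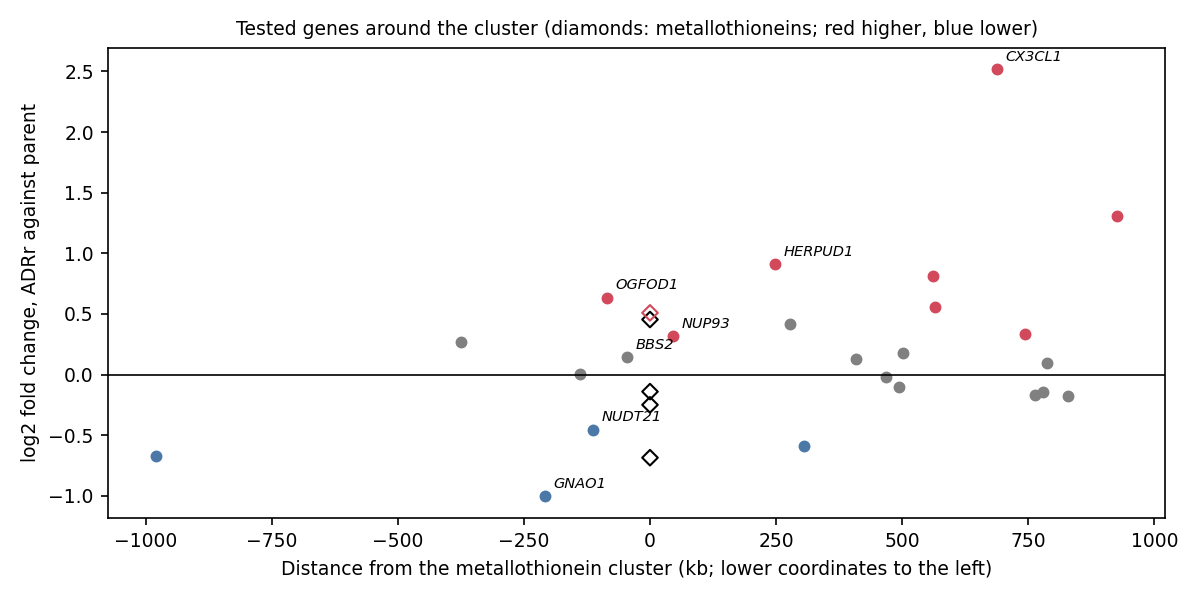
Log2 fold change of ADRr against parent cells for the 24 tested genes within 1000 kb of the metallothionein cluster, by distance from its edges in kb, with the tested metallothioneins as diamonds at 0. Called genes lie on both sides of the zero line, from GNAO1 at -1.01 to CX3CL1 at 2.52.

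Among 9847 genes with a mean of at least 10 CPM, the 5 whose log2 CPM followed MT2A most closely over the 6 libraries were BAG3, CALB2, CD74, ANKRD13B and PQLC3. Pearson r was 0.998, 0.997, 0.997, 0.996 and 0.996, respectively. After the group means were taken out, r was 0.975, 0.972, 0.977, 0.977 and 0.964. These genes were picked for their r, 31 genes had an r above 0.99, and the 6 points share group and library, so the values are descriptions only. CD74, the MHC class II invariant chain, measured 280, 257 and 290 CPM in parent libraries and 360, 402 and 424 CPM in ADRr libraries. The co-chaperone gene BAG3 measured 90.2, 83.5 and 92.8 CPM in parent libraries and 111, 122 and 124 CPM in ADRr libraries. As with MT2A, parent replicate 2 was the lowest parent library and ADRr replicate 1 the lowest ADRr library for both.

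The line label was checked against markers. VIM, CD44, EGFR and CAV1 were at 349 to 1482 CPM in group means, ESR1 had at most 1 count, PGR had 0 counts, and ERBB3 (7.24 and 6.69 CPM) and CDH1 (14.7 and 7.03 CPM) were low. Of the 6 leukocyte markers, 0 passed the filter, and the highest group mean was 0.149 CPM for CD53 in ADRr cells.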

How the data were processed

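Polyadenylated RNA of 3 parent and 3 ADRr libraries had been sequenced by the authors in paired-end mode (Illumina NovaSeq). Per the submitters' processing notes and the study's methods, the authors cleaned the reads, mapped them with HISAT2 2.0.5 to GRCh38 and made the deposited gene counts with featureCounts 1.5.0-p3. The strand setting is not given in the sources used here. The deposited counts are whole numbers without normalization. The authors' FPKM values divide by library size and total exon length, and they were used for levels and alternatives only. All 58735 gene IDs and lengths equalled GENCODE 29, and 0 columns of per-sample values were left unused.

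Counts were filtered with filterByExpr, scaled by TMM and tested with edgeR 4.0.16 (R 4.3.3) by the quasi-likelihood test with Benjamini-Hochberg adjustment over all tested genes. Calls needed both an adjusted p no higher than 0.05 and a 1.2-fold change. Alternatives used limma 3.58.1 and DESeq2 1.42.0. The tests were also run on simulated counts in which 200 of 15242 genes changed 2-fold. There edgeR recovered 89.5% of them, with 4.28% false calls. Every simulated gene had the same relative spread between libraries, and far fewer genes changed than were called in the data. These rates therefore do not carry over to the calls among all tested genes. The tested members changed by less than 2-fold, so this simulation does not speak to their calls. The labels give replicate numbers but do not say that libraries came from separate cultures. The p-values therefore set the group difference against a spread between these libraries that may be technical. The series' design text mentions time points that the sample labels do not name, so the libraries within each group entered as replicates.

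The members and gene lists were chosen with earlier results of these data known. The rule for named genes took all 9 members, other metallothioneins that passed the filter, up to 2 increases and 2 decreases per list, the nearest tested protein-coding gene on each side of the cluster and the 5 genes most like MT2A. Other genes were named after their values were seen.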

Additional observations from a re-analysis of the deposited data

How the results depend on the processing

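MT2A kept its direction in all 17 alternatives, with log2 fold changes from 0.46 to 0.57. The alternatives by adjusted p alone and by a log2 limit of 1.2 reused the main fit, so direction could not change there. MT2A lost its call only when the log2 fold change had to reach 1.2 in size. At that limit 0 members were called higher, and 1114 of all tested genes were called higher and 972 lower. The number of members called higher was 2 with library size alone (MT1X, edgeR adjusted p = 0.048) and 2 with no filter (MT1X, edgeR adjusted p = 0.0435). The number called lower was 1 with at least 10 counts in every library (MT1A), 1 with limma-trend on log2(FPKM + 0.1) (MT1A, limma adjusted p = 0.049) and 1 by adjusted p alone (MT1E). Leaving out 1 library at a time gave 1 to 2 members called higher and 0 to 2 called lower, and the ratio of summed metallothionein CPM ran from 1.26 to 1.33. The cause of these shifts was not tested. The alternatives' adjusted p ranged from 0.0040 to 0.33 for MT1X, from 0.027 to 0.35 for MT1A and from 0.00017 to 0.041 for MT1E. MT1M was not tested in the main fit, and with no filter its edgeR adjusted p was 0.0595. Its results in other alternatives were not kept.

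Parent and ADRr libraries share replicate numbers. No shared deviation was seen between same-number libraries (r = 0.0074, -0.021 and -0.046). This check cannot show whether the libraries were prepared in pairs. With a replicate block, 1 member was called higher and 0 lower, and 4406 of all tested genes were called higher and 4464 lower. Depth limits MT1A, MT1F and MT1X, at 23 to 125 counts per library.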
